A study of Mus musculus with 20 samples.

Results

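The 2 corticosteroid receptors of the brain and 7 genes that act in or respond to glucocorticoid signalling were followed by their gene symbols through RNA-seq of the neocortex (NCX) and hippocampus (HP) of cTKO and control mice. The 9 genes are Nr3c1, Nr3c2, Fkbp5, Sgk1, Tsc22d3, Zbtb16, Pdk4, Hsd11b1 and Crhr1, of 24421 genes in the count tables. They were taken by name, with earlier results of these data known, and all 9 had enough reads to be tested in every comparison. The comparisons ask whether these genes differed between genotypes in each region, between the regions, and whether they varied together from library to library.

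Corticosterone, the glucocorticoid of the mouse, enters cells and binds receptors that are held ready by Hsp90 chaperones. The bound receptor moves into the nucleus, attaches to palindromic DNA elements and raises the transcription of genes such as Fkbp5, Sgk1 and Tsc22d3. Mineralocorticoid receptors, which bind the hormone more tightly, are known to be abundant in hippocampal neurons, while glucocorticoid receptors are widespread in neurons, glia and blood vessels. Secretion of the hormone follows the time of day and stress, and begins with the release of Crh from the hypothalamus.

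RNA was taken at 3 months of age from 5 cTKO and 5 littermate control mice of both sexes on a mixed background of C57BL/6 J and a second strain that the methods name, which gave 20 libraries, 5 in each of the 4 groups. These cTKO mice carried floxed App, Aplp1 and Aplp2 together with the Camk2a-Cre transgene, which is active in excitatory neurons of the postnatal forebrain, so that other cells of the tissue keep the 3 genes. Controls carried the floxed alleles without Cre, although their GEO labels read wild type. RNA of each region was extracted with its own kit, so region and kit cannot be told apart, and the time of day of collection is not given in the sources used here. By the methods, the animals were housed in a regular cycle of light and dark with chow and water freely available, and were killed with carbon dioxide and then cervical dislocation. No source says whether the number of a library marks the same mouse in both regions.

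Total counts ran from 12169474 to 25331954 per library, and levels are given as CPM, the counts of a gene scaled to a common library size after TMM, on which 3 counts are worth 0.123 to 0.248 CPM. For App, Aplp1 and Aplp2, each cTKO library lay below each control library of its region. All 7 hippocampal markers were higher in the hippocampus and 5 of 7 neocortical markers were lower there, in each genotype. In 2 libraries, cTKO neocortex 5 and cTKO hippocampus 4, markers of embryonic tissue summed to 633 and 390.1 CPM, against 0.862 to 3.16 CPM in the other 18, and the tests and list counts that rest on them were also run without them, with the values given where a named gene gained or lost its call. Choroid plexus markers summed to between 77.2 and 2711 CPM in control hippocampus and between 114 and 602 CPM in cTKO hippocampus, against at most 19.2 CPM in the neocortex. In bulk tissue, fewer cells of a type and less RNA per cell cannot be told apart. Xist was above 412 CPM in 8 libraries and below 0.617 CPM in the other 12, and this split fell at the same numbers in both regions (10 of 10 numbers, with 2 of 5 numbers high in each genotype).

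The consensus element bound by both receptors was searched in RefSeq promoter windows of 300 bases (GRCm38.p6) as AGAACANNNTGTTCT on both strands. RefSeq gave 14 windows for 7 of the 9 genes, and Nr3c1 and Zbtb16 had no window. The full element occurred in 3 of 32851 windows (0.00913%), and 1 of the 3 belonged to Sgk1, whose gene body spans chr10:21882184-21999903 on the plus strand. A shorter core, GNACANNNTGTNC, which includes the full element, matched 0.475% of windows and again only that window among the 14. The hexamer AGAACA, which is 1 arm of the element, matched 18.97% of windows and 4 of the 14, 3 of them of Sgk1 and 1 of Tsc22d3. The 250 bases upstream of 3 start sites are shown for the genes on which the results turn. They are chr10:21993640-21993889 on the plus strand for Sgk1 with the full element in capitals, chrX:140600523-140600772 on the minus strand for Tsc22d3 with that hexamer, on the opposite strand, in capitals, and chr6:5496279-5496528 on the minus strand for Pdk4, in which neither was found. Each is written 5′ to 3′ on the strand of its gene.
Sgk1: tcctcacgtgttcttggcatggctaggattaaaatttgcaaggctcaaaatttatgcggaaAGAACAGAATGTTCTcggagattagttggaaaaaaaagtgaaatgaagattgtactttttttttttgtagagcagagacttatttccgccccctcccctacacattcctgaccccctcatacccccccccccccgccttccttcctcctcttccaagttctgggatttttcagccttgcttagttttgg
Tsc22d3: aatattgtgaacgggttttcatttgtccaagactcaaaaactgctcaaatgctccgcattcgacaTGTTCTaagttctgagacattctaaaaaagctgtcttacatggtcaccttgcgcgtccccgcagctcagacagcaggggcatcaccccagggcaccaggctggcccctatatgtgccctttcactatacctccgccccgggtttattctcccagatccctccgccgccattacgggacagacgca
Pdk4: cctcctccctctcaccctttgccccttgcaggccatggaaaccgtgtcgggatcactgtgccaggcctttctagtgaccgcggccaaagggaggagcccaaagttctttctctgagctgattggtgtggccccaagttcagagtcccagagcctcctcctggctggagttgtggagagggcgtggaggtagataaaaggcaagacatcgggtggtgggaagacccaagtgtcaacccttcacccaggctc
In the Sgk1 window the element AGAACAGAATGTTCT begins 189 bases before its start site, and that start lies 776 bases before the last of the 6 annotated Sgk1 starts. A match of letters is a description of these windows and does not show binding.

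**Figure D1:**
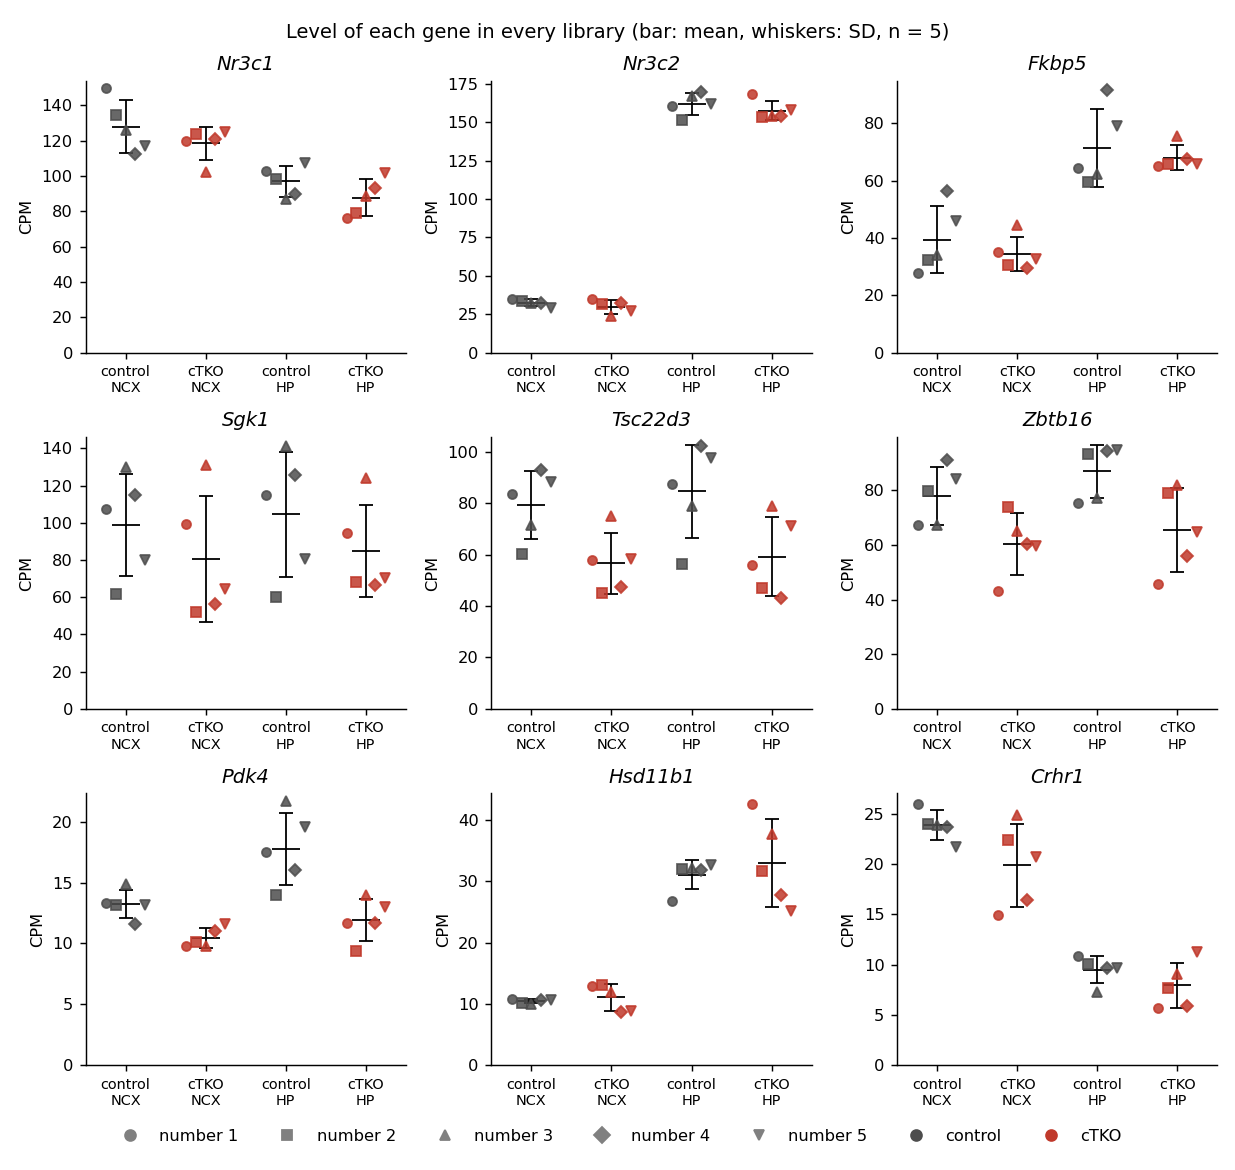
CPM (linear axis from 0) of each gene in every library, by genotype and region (NCX, neocortex; HP, hippocampus), with the number of the library as the symbol, the mean as a bar and the SD as whiskers (n = 5 per group). Nr3c2 and Hsd11b1 lie higher and Crhr1 lower in all 10 hippocampal libraries, and Pdk4 is lower in every cTKO library than in the controls of its region.

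Nr3c2 encodes the mineralocorticoid receptor and showed the largest regional difference among the 9 genes. In the neocortex its level was 35.04, 33.6, 32.4, 32.5 and 29.3 CPM in control libraries 1 to 5 and 34.6, 31.5, 23.6, 32.1 and 27.2 CPM in the cTKO libraries. In the hippocampus it was 161.0, 151.4, 167.5, 169.7 and 161.9 CPM in controls and 168.4, 153.5, 154.1, 154.1 and 158.3 CPM in cTKO mice. The regions were far apart and the genotypes overlapped in both. Nr3c2 was 4.95-fold higher in the hippocampus of controls (log2 fold change 2.31, 95% interval 2.19 to 2.43, FDR = 2.54e-13) and 5.24-fold higher in that of cTKO mice (2.39, 2.18 to 2.60, FDR = 6.18e-09), where FDR is the p of edgeR's quasi-likelihood test adjusted over all genes tested.

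Nr3c1, the gene of the glucocorticoid receptor, went the other way and by less. Its level in the neocortex was 150.1, 134.6, 126.1, 112.4 and 116.9 CPM in controls and 119.8, 123.9, 102.4, 121.1 and 125.0 CPM in cTKO mice. In the hippocampus it was 103.1, 98.2, 86.8, 89.7 and 107.2 CPM in controls and 76.0, 78.9, 88.9, 93.1 and 101.9 CPM in cTKO mice. Every hippocampal library lay below every neocortical library of its genotype, with log2 fold changes of -0.41 in controls (-0.57 to -0.24, FDR = 0.000361) and -0.45 in cTKO mice (-0.64 to -0.25, FDR = 0.00174).

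The ratio of Nr3c2 to Nr3c1 within a library does not depend on library size. In the neocortex it ranged from 0.234 to 0.289 among controls and from 0.218 to 0.289 among cTKO libraries, and in the hippocampus from 1.51 to 1.93 and from 1.55 to 2.21. As log2 values, control and cTKO means were -1.97 ± 0.11 and -2.0 ± 0.16 for neocortical libraries and 0.75 ± 0.17 and 0.85 ± 0.20 for hippocampal ones (SD, n = 5). The regions did not overlap in either genotype (exact permutation test, two-sided p = 0.00794, the smallest that 5 against 5 libraries allow, and 0.0159 after adjustment over 4 comparisons). Genotypes overlapped in both regions, with a difference of -0.03 in the neocortex (exact permutation p = 0.714) and 0.11 in the hippocampus (exact permutation p = 0.397). Per kilobase of exon, Nr3c1 stood at 16.7 CPM and Nr3c2 at 5.03 CPM in control neocortex, while in control hippocampus Nr3c2 stood at 25.1 CPM and Nr3c1 at 12.6 CPM.

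Hsd11b1, whose enzyme regenerates active corticosterone from its inert keto form inside cells, was also higher in the hippocampus. Control libraries held 10.7, 10.1, 10, 10.7 and 10.6 CPM in the neocortex and 26.8, 31.9, 32.2, 31.9 and 32.7 CPM in the hippocampus, and cTKO libraries 12.9, 13.0, 11.9, 8.65 and 8.79 CPM and 42.7, 31.7, 37.7, 27.8 and 25.2 CPM. Its log2 fold change between regions was 1.57 (1.42 to 1.73, FDR = 1.31e-10) in controls and 1.56 (1.2 to 1.92, FDR = 1.41e-05) in cTKO mice. The gene overlaps Lamb3, which had 9 to 35 counts per library, fewer than the 117 or more of Hsd11b1.

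Fkbp5 encodes FKBP51, a cochaperone that lowers the affinity of the receptor for hormone and is itself induced by the receptor. It was 27.8, 32.4, 33.9, 56.5 and 46.0 CPM in control neocortex and 35.1, 30.5, 44.4, 29.4 and 32.7 CPM in cTKO neocortex. In the hippocampus it was 64.5, 59.4, 62.3, 91.6 and 79.0 CPM in controls and 65.0, 65.8, 75.7, 67.6 and 65.9 CPM in cTKO mice. Every hippocampal library lay above every neocortical one of its genotype, with log2 fold changes of 0.86 in controls (0.50 to 1.22, FDR = 0.000439) and 0.97 in cTKO mice (0.74 to 1.2, FDR = 1.91e-05).

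Crhr1, a receptor for Crh on the cell surface, was the member with the largest fall from neocortex to hippocampus. Its level was 26.0, 24.02, 23.9, 23.7 and 21.7 CPM in control neocortex and 10.8, 10.02, 7.23, 9.69 and 9.64 CPM in control hippocampus. In cTKO mice it was 14.95, 22.4, 24.9, 16.5 and 20.7 CPM in the neocortex and 5.71, 7.71, 9.01, 5.91 and 11.2 CPM in the hippocampus. The log2 fold change was -1.34 in both genotypes (-1.54 to -1.13, FDR = 1.81e-08 in controls, and -1.77 to -0.91, FDR = 0.000193 in cTKO mice).

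For 3 induced genes the interval of the regional difference included 0 in both genotypes. The log2 fold change from neocortex to hippocampus was 0.08 in controls and 0.06 in cTKO mice for Sgk1 (intervals -0.38 to 0.54 and -0.50 to 0.62), the serum and glucocorticoid regulated kinase. It was 0.08 and 0.05 for Tsc22d3 (-0.22 to 0.38 and -0.34 to 0.44), which encodes the leucine zipper protein GILZ. For Zbtb16, the gene of the zinc finger repressor PLZF, it was 0.15 (-0.04 to 0.35, FDR = 0.168) and 0.10 (-0.26 to 0.47, FDR = 0.659). With the number of the library as a block, Zbtb16 was called higher in control hippocampus (log2 fold change 0.16, FDR = 0.0142), and it was higher there in 5 of 5 same-numbered pairs. Pdk4, whose kinase shuts off pyruvate dehydrogenase, was higher in control hippocampus by 0.42 (0.18 to 0.66, FDR = 0.00447) with overlapping libraries, and the value in cTKO mice was 0.18 (-0.08 to 0.44, FDR = 0.249). The difference between these 2 Pdk4 values was -0.23 (-0.57 to 0.11, unadjusted p = 0.175 for the region by genotype term of edgeR).

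In all, 6 of 9 members differed between regions in controls, where 59.1% of all 13832 genes tested did, and 7 of 9 with the library number as a block, where 61.4% did. The count was 5 of 9 in cTKO mice, where 41.3% of 13846 did. Groups did not overlap for 5 members in each genotype, against 44.0% and 28.6% of all genes. Without the 2 libraries with embryonic markers the same 5 members were called in cTKO mice. Of 7 astrocyte markers 5 were called higher in the hippocampus in each genotype, while Aldh1l1 was called lower there in controls (log2 fold change -0.23, FDR = 0.0060) and had a value of -0.14 (FDR = 0.406) in cTKO mice, where it was called lower without both libraries with embryonic markers (-0.32, FDR = 0.0135). Their summed level was 5992 to 6557 CPM in neocortical and 6644 to 8962 CPM in hippocampal libraries of controls, and it overlapped in cTKO mice (5430.0 to 5863 CPM and 5809 to 9012 CPM). Their part in these differences was not tested.

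**Figure D2:**
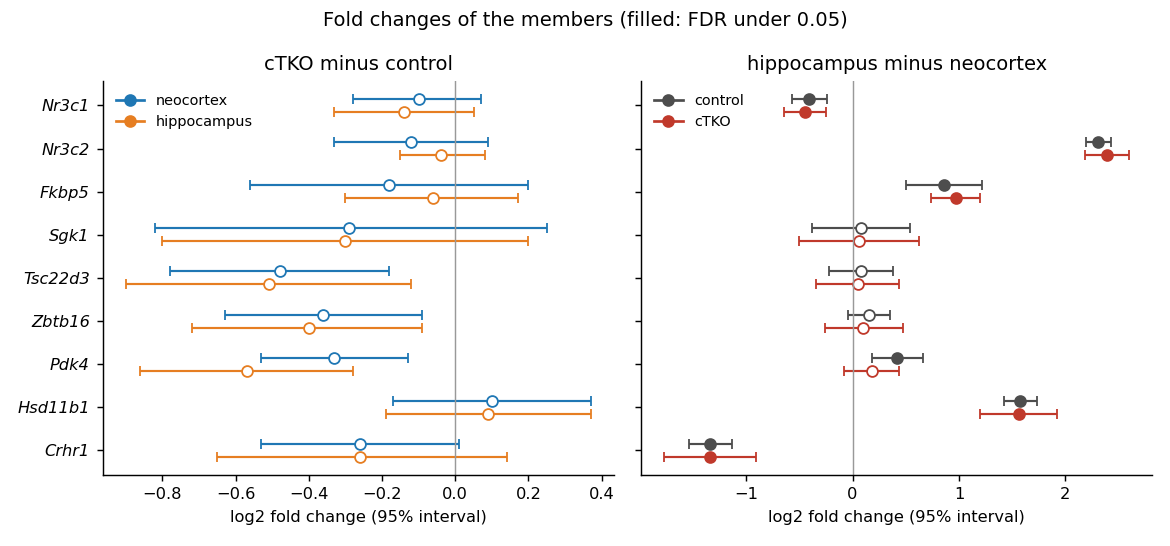
Log2 fold changes of the 9 genes with 95% intervals from edgeR's quasi-likelihood fit, by genotype within each region (left) and between regions within each genotype (right), filled where the FDR was under 0.05. No genotype difference was called, and Nr3c2, Hsd11b1, Fkbp5, Crhr1 and Nr3c1 were called between regions in both genotypes.

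Between genotypes the fold changes of Nr3c2, Hsd11b1, Fkbp5, Crhr1 and Nr3c1 were smaller than between regions. Those of Tsc22d3, Zbtb16 and Sgk1 were larger, although no member was called by genotype by edgeR's quasi-likelihood test. The levels of Pdk4, Tsc22d3 and Zbtb16 were the lowest relative to controls. Pdk4 (chr6:5483351-5496309) was 13.3, 13.2, 14.9, 11.63 and 13.2 CPM in control neocortex and 9.80, 10.08, 9.81, 11.02 and 11.57 CPM in cTKO neocortex. In the hippocampus it was 17.5, 14.0, 21.7, 16.1 and 19.6 CPM in controls and 11.7, 9.36, 13.95, 11.7 and 13.03 CPM in cTKO mice. The genotypes did not overlap in either region, although in both the closest control and cTKO libraries nearly met. In the neocortex the log2 fold change was -0.33 ± 0.094 (SE, 95% interval -0.53 to -0.13, unadjusted p = 0.00341, FDR = 0.200 by edgeR's quasi-likelihood test), and in the hippocampus it was -0.57 ± 0.13 (-0.86 to -0.28, unadjusted p = 0.000996, FDR = 0.0954). An exact permutation test gave p = 0.00794 in each region, the smallest that 5 against 5 libraries allow. Of 13469 genes tested in both regions, 21 (0.156%) were lower in cTKO mice without overlap in both, and Pdk4 was the 1 member among them. In the hippocampus the call depended on the method, since Pdk4 passed with edgeR's exact test (FDR = 0.0129), edgeR's likelihood ratio test (0.0128), DESeq2 (0.00745) and a single fit of all 20 libraries (0.0127). Over all alternatives its FDR there ranged from 0.00745 to 0.228, with a log2 fold change between -0.64 and -0.48. All 7 choroid plexus markers had lower values in cTKO hippocampus as well, with log2 fold changes of -1.88 to -0.72, of which 5 had an unadjusted p under 0.05 and 0 were called. Without cTKO hippocampus library 4, 1 of the 7 had an unadjusted p under 0.05. Of 7 mural cell markers 5 had lower values there, with a median of -0.09 over the 7. Tagln and Acta2 of smooth muscle had -1.04 (FDR = 0.196) and -0.91 (FDR = 0.223), while Kcnj8 and Pdgfrb had 0.11 and 0.05. Across hippocampal libraries Pdk4 had a correlation of 0.33 with the choroid plexus markers, -0.02 with the mural markers and 0.49 with the clock genes, and their part in its lower level was not tested.

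Tsc22d3 (chrX:140539528-140600659) was 83.8, 60.2, 71.6, 92.9 and 88.4 CPM in control neocortex and 57.96, 44.97, 74.99, 47.3 and 58.1 CPM in cTKO neocortex. In the hippocampus it was 87.5, 56.4, 79.1, 102.3 and 97.6 CPM in controls and 55.8, 47.0, 79.1, 43.0 and 71.1 CPM in cTKO mice. The groups overlapped in both regions, since control library 2 was low and cTKO library 3 was high in each. The log2 fold change was -0.48 (-0.78 to -0.18, unadjusted p = 0.00439, FDR = 0.218) in the neocortex and -0.51 (-0.90 to -0.12, unadjusted p = 0.0152, FDR = 0.284) in the hippocampus, with exact permutation p of 0.0397 and 0.0556. Without cTKO neocortex library 3 the neocortical FDR was 0.0418, the only call of Tsc22d3 among 10 fits with 1 library left out. Over these fits its FDR reached 0.477. Without cTKO neocortex library 3, 120 genes were called in all in the neocortex, against 26 with every library.

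Zbtb16 (chr9:48654297-48836222) was 67.5, 79.8, 67.3, 91.2 and 84.0 CPM in control neocortex and 43.1, 73.9, 65.0, 60.2 and 59.6 CPM in cTKO neocortex. In the hippocampus it was 75.3, 93.1, 77.4, 94.4 and 94.7 CPM in controls and 45.6, 79.0, 81.9, 55.8 and 64.9 CPM in cTKO mice. The groups overlapped in both, and cTKO library 1 was the lowest in each region. The log2 fold change was -0.36 (-0.63 to -0.09, unadjusted p = 0.0131, FDR = 0.326) in the neocortex and -0.40 (-0.72 to -0.09, unadjusted p = 0.0148, FDR = 0.283) in the hippocampus, with exact permutation p of 0.0317 and 0.0476.

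The other members gave intervals that included 0 in both regions. Sgk1 had log2 fold changes of -0.29 (-0.82 to 0.25) in the neocortex and -0.30 (-0.80 to 0.20) in the hippocampus, the widest intervals of the 9. Crhr1 had -0.26 in both (-0.53 to 0.01 and -0.65 to 0.14), and Fkbp5 had -0.18 (-0.56 to 0.20) and -0.06 (-0.30 to 0.17). The receptors had values of -0.10 (-0.28 to 0.07) and -0.14 (-0.33 to 0.05) for Nr3c1 and -0.12 (-0.33 to 0.09) and -0.04 (-0.15 to 0.08) for Nr3c2. Hsd11b1 alone had positive values, 0.10 (-0.17 to 0.37) and 0.09 (-0.19 to 0.37).

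By edgeR's quasi-likelihood test 0 of 9 members were called in the neocortex, where 26 of 13843 genes were (0.188%), and 0 of 9 in the hippocampus, where 67 of 13702 were (0.489%). At an unadjusted p under 0.05, the 3 members Pdk4, Tsc22d3 and Zbtb16 were lower in each region, against 4.86% and 5.88% of all genes. DESeq2 called 0 members in the neocortex and 1 in the hippocampus, Pdk4. Leaving out the library with embryonic markers of either region left 0 members called there. Pdk4 was the 1 member of 9 whose groups did not overlap in the direction of lower levels, which held for 1.60% of all genes of the neocortex and 1.26% of those of the hippocampus. The median log2 fold change of the members was -0.26 in each region, beside 0.009 and 0.005 over all genes. In each region 8 of 9 values were negative. Of the lists below, immediate early genes had medians of -0.24 and -0.37, with 9 and 8 of 10 values negative. Receptor coregulators had -0.08 and -0.05 (11 and 8 of 11 negative), and receptor chaperones 0.09 and 0.07 (3 and 0 of 14 negative). Members and lists were chosen with earlier results of these data known. By the methods both regions came from the same mice, so that they are not independent. The region by genotype term called 0 of 9 members, against 0.0564% of 14192 genes, with 0 members and 3.75% of genes at an unadjusted p under 0.05. DESeq2 and the likelihood ratio test also called 0 members for that term.

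Among 28 other genes known to be induced by glucocorticoids, 27 were tested and 0 were called by genotype in either region. At an unadjusted p under 0.05, 7 of 27 were lower and 1 higher in the neocortex. In the hippocampus 7 of 27 were lower and 2 higher. Of all genes, 4.86% and 5.88% were lower at that threshold in neocortex and hippocampus. In either direction 1444 of 13843 and 1646 of 13702 genes passed it. The median log2 fold change of the 27 was -0.20 and -0.16, with 21 and 22 of 27 values negative. In all, 5 genes had an unadjusted p under 0.05 and a lower level in both regions, which came from the same mice. The share of all genes that did so is not given here. These 5 genes are named after their values were seen. They are Klf15, a metabolic transcription factor (-0.20 in the neocortex and -0.41 in the hippocampus), Gjb6, a connexin of astrocytes (-0.22 and -0.35), Mertk, a receptor for engulfment of cells (-0.32 and -0.49), Dusp1, a phosphatase of MAP kinases (-0.33 and -0.62), and Sult1a1, a sulfotransferase (-0.55 and -0.66). Ehd3, which acts in endosomal transport, had higher values in both (0.49 and 0.23). Without cTKO neocortex library 5, Ehd3 was called in the neocortex (0.59, FDR = 0.00245), and Klf15 and Sult1a1 had unadjusted p of 0.0697 and 0.0669 there.

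Genes around the receptor showed few differences by genotype. None of 14 receptor chaperones, 11 coregulators or 8 steroid enzymes and transporters tested was called in either region by edgeR's quasi-likelihood test, with 2, 1 and 1 of them at an unadjusted p under 0.05 in the neocortex and 0 of each in the hippocampus. Of 10 genes of the Crh axis 3 were tested, and Crhbp, which binds and sequesters Crh, rose in cTKO neocortex (log2 fold change 0.59, 0.38 to 0.81, FDR = 0.0352) with a value of 0.29 in the hippocampus (-0.02 to 0.59, FDR = 0.446). Among 14 clock genes, Bhlhe41, a repressor of the clock, rose in cTKO hippocampus (0.79, FDR = 0.0143) and had a value of 0.02 in the neocortex. The region by genotype term called neither Bhlhe41 (0.78, FDR = 0.0929) nor Crhbp (-0.30, FDR = 0.9999). Of 10 immediate early genes, Npas4, an activity-dependent transcription factor, fell in both regions (-0.81, FDR = 0.0144, and -1.38, FDR = 0.0434). Without the library with embryonic markers of the region, Crhbp in the neocortex (FDR = 0.00193), Bhlhe41 in the hippocampus (0.0172) and Npas4 in the neocortex (0.00683) were still called, and Npas4 in the hippocampus was not (-1.46, FDR = 0.0543). Hlf, a clock output gene with a value of -0.37 (FDR = 0.114) in the neocortex, was called there without that library (-0.45, FDR = 0.00846). Its value in the hippocampus was -0.6 (FDR = 0.163).

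**Figure D3:**
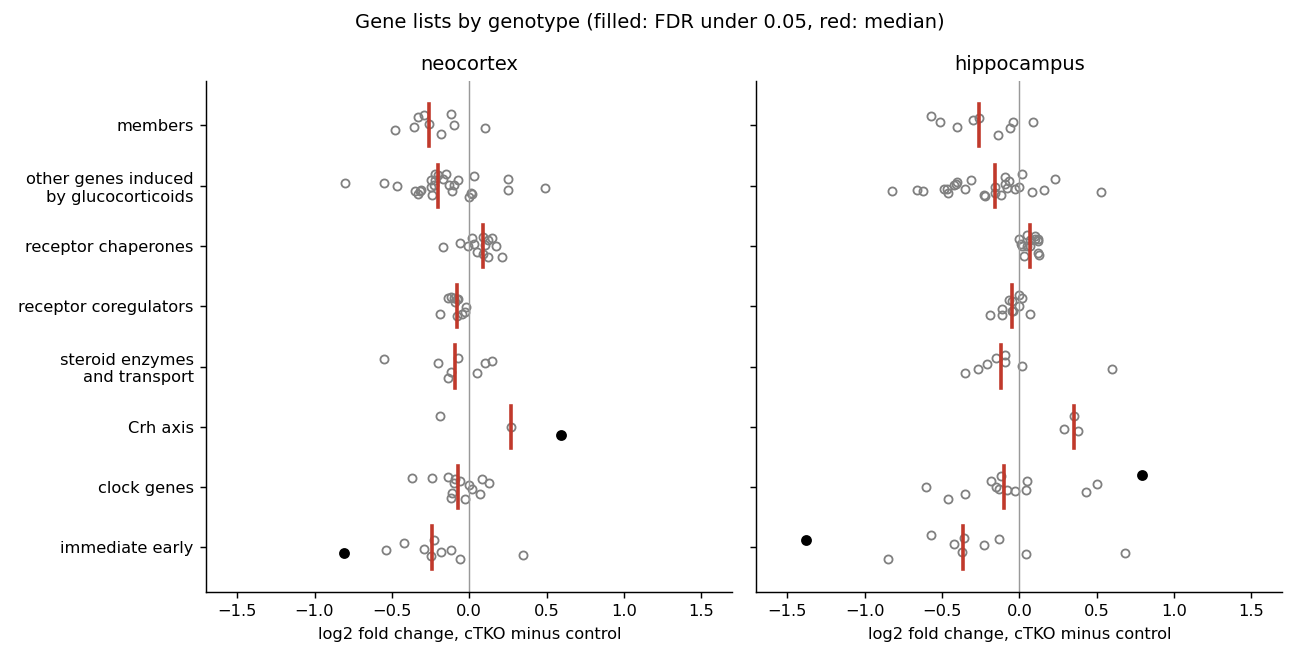
Log2 fold change from control to cTKO of each tested gene in 8 lists (members, other induced genes, receptor chaperones, coregulators, steroid enzymes and transport, Crh axis, clock genes and immediate early genes), for the neocortex (left) and hippocampus (right), with the median in red and genes with an FDR under 0.05 filled. Members, other induced genes and immediate early genes have medians of -0.26, -0.20 and -0.24 in the neocortex. In the hippocampus their medians are -0.26, -0.16 and -0.37. The filled genes are Npas4 in both regions, Crhbp in the neocortex and Bhlhe41 in the hippocampus.

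Between regions the same lists moved in several directions. Of all genes tested, 29.8% were called higher and 29.2% lower in control hippocampus, and 20.2% and 21.1% in cTKO hippocampus. Of the 27 other induced genes, 14 were higher and 5 lower in control hippocampus, and 12 were higher and 3 lower in cTKO hippocampus, with a median log2 fold change of 0.32 and 0.19 beside 0.012 and -0.003 over all genes. Among the 4 with the smallest p in controls were Cebpd (2.13 in controls and 2.51 in cTKO mice), a transcription factor of acute responses, and Dusp1 (-1.42 and -1.71). Of 14 chaperones 5 were higher in control hippocampus and 4 in cTKO hippocampus, led by Ptges3, the p23 protein that stabilizes the receptor on Hsp90 (0.39 and 0.34). Of 11 coregulators 9 were lower in control hippocampus and 3 in cTKO hippocampus, among them the coactivator Ncoa3 (-0.42 and -0.46), while the coactivator Ncoa1 was higher in control hippocampus (0.22, FDR = 0.00741) with a value of 0.18 in cTKO mice (FDR = 0.0968). Crh itself was lower in the hippocampus (-1.92, FDR = 6.76e-07, and -1.34, FDR = 0.000324), as was Crhr1. Cyp7b1, which hydroxylates neurosteroids, was higher there (1.63, FDR = 2.94e-09, and 1.66, FDR = 1.77e-06). Of 14 clock genes 12 were lower in control hippocampus, as were 9 of 10 immediate early genes, and 9 and 8 were lower in cTKO hippocampus. Bhlhe41 was called higher in cTKO hippocampus (0.70, FDR = 0.00167) and had a value of -0.06 (FDR = 0.433) in controls. Without both libraries with embryonic markers, the counts in cTKO hippocampus were 11 higher and 3 lower for the other induced genes, 3 higher for chaperones, 2 lower for coregulators, 8 lower and 1 higher for clock genes and 7 lower for immediate early genes.

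The levels of 4 induced genes rose and fell together in libraries of the same number from the 2 regions. This comparison was chosen after the values had been seen, so its p values are descriptive. The check of pairing by number was not passed in cTKO mice. Sgk1 was 107.6, 61.7, 129.9, 114.8 and 80.2 CPM in control neocortex 1 to 5 and 115.2, 59.8, 141.3, 125.7 and 80.4 CPM in control hippocampus 1 to 5. In cTKO mice it was 99.6, 51.8, 130.9, 56.2 and 64.2 CPM in the neocortex and 94.4, 68.0, 124.1, 66.8 and 70.5 CPM in the hippocampus. Library 3 was the highest in each of the 4 groups, and library 2 was the lowest in all but cTKO hippocampus, where libraries 4 and 2 were the lowest pair. After the mean of each genotype and region was taken off, r was 0.95 over the 10 numbers (exact permutation within genotype, two-sided p = 0.000139, adjusted over 9 genes 0.00125, Spearman rho 0.92) and 0.98 without the 2 numbers farthest from the median. The SD within genotype was 0.51 log2 units in the neocortex and 0.45 in the hippocampus, against a median of 0.16 over all genes in each.

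Tsc22d3 gave r = 0.94 (exact permutation p = 0.000347, adjusted 0.00156, rho 0.95) and 0.94 without the 2 farthest numbers. Zbtb16 gave r = 0.90 (exact permutation p = 0.0025, adjusted 0.0075, rho 0.88) and 0.82 without them. Fkbp5 gave r = 0.89 (exact permutation p = 0.00924, adjusted 0.0208, rho 0.78 with an adjusted p of 0.109) and 0.55 without them, so that its relation rests on those numbers. Over 13469 genes tested in both regions the median r was 0.10 and 95% of genes lay below 0.72. Between 99.2% and 99.8% of genes had a lower r than these 4.

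For the receptors r was 0.16 (Nr3c1, exact permutation p = 0.650) and 0.22 (Nr3c2, exact permutation p = 0.549). Pdk4 gave r = 0.43 (exact permutation p = 0.255), Hsd11b1 0.73 (exact permutation p = 0.176) and Crhr1 0.67 (exact permutation p = 0.124). Without the 2 farthest numbers r was -0.10 for Crhr1 and 0.86 for Hsd11b1. Without the numbers of the 2 libraries with embryonic markers (8 numbers), r was 0.95 for Sgk1, 0.97 for Tsc22d3, 0.95 for Zbtb16 and 0.92 for Fkbp5, and -0.33 for Hsd11b1. Zbtb16 then no longer passed adjustment (adjusted exact permutation p = 0.05), and the other 3 did. This comparison across regions was chosen after the values had been seen, and it takes the same number in both regions as a pair. A check of that pairing, given with the processing, was passed in controls and not in cTKO mice.

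**Figure D4:**
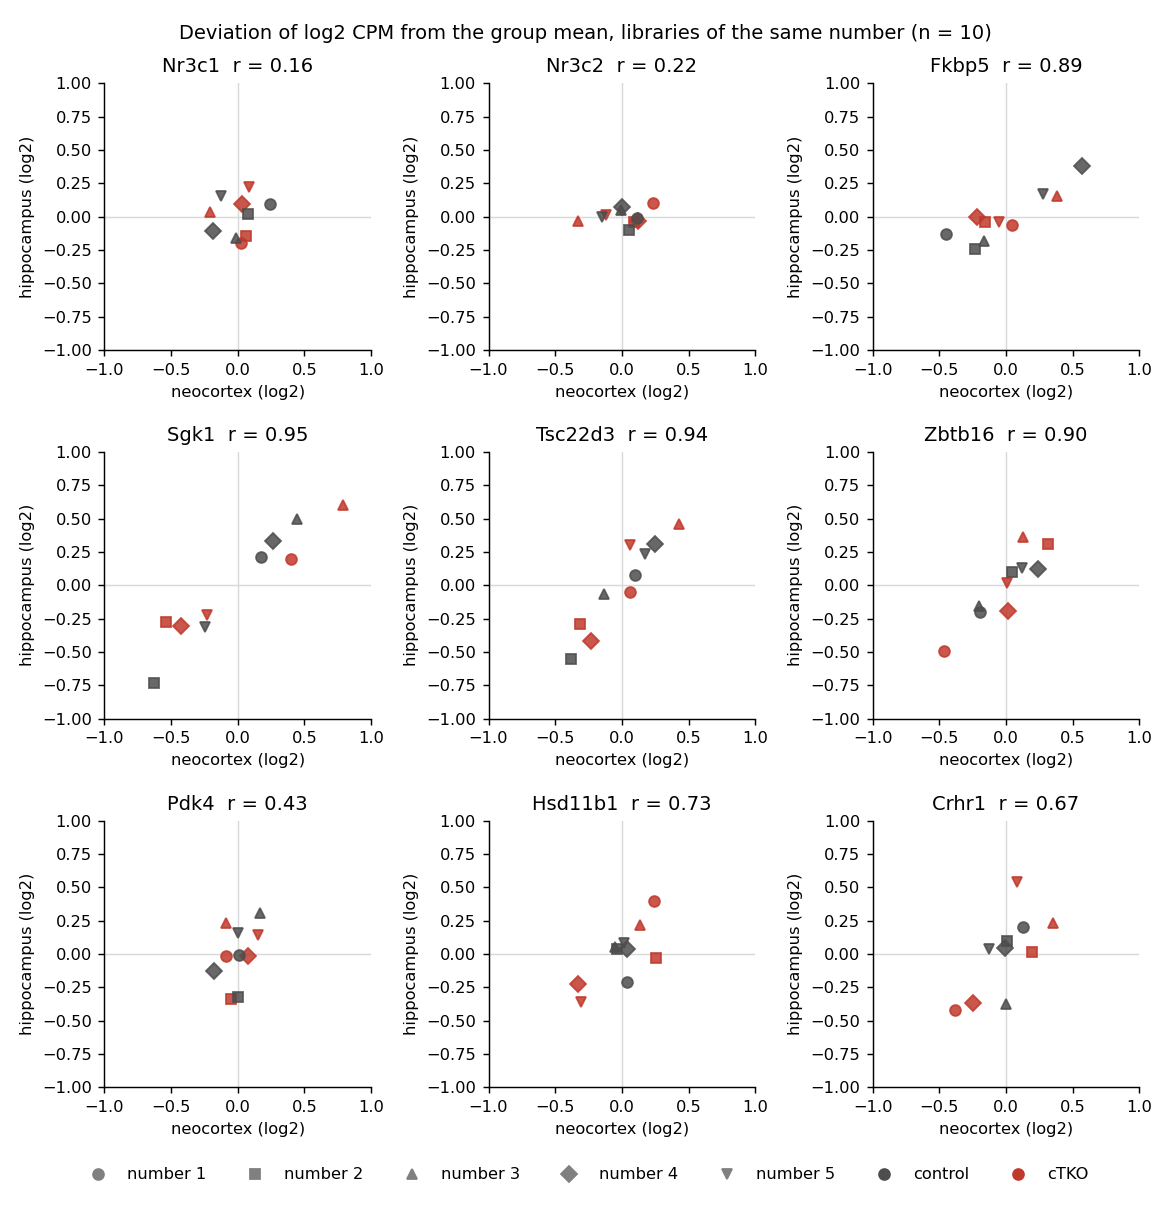
Deviation of log2 CPM from the mean of its genotype and region, neocortex (x) against hippocampus (y), for libraries of the same number (symbol) in controls and cTKO mice. Points of Sgk1, Tsc22d3, Zbtb16 and Fkbp5 lie along a rising line with r from 0.89 to 0.95, and r is 0.16 for Nr3c1 and 0.22 for Nr3c2.

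Of the 27 other induced genes 13 had an r above the 95th percentile of all genes, and the median of the list was 0.72. The other 14 lay below that percentile, down to 0.10 for Ehd3, -0.01 for Bcl6 and -0.38 for Cebpd. Plin4, which coats lipid droplets, gave 0.96, Cdkn1a, a cell cycle inhibitor, 0.90, and Klf9, a Krüppel-like transcription factor, 0.85. Lists not made of glucocorticoid targets were high as well, with 5 of 10 immediate early genes above that percentile (median 0.72) and 6 of 8 oligodendrocyte markers (median 0.84). Over the 8 numbers without embryonic markers, 10 of 27 other induced genes, 3 of 10 immediate early genes and 3 of 8 oligodendrocyte markers lay above the 95th percentile, which was then 0.80. Within neocortex and hippocampus, Sgk1 had correlations of 0.55 and 0.52 with the oligodendrocyte markers, and Tsc22d3 had 0.73 and 0.73 with the clock genes. With the oligodendrocyte markers Tsc22d3 had 0.28 and 0.14, Fkbp5 0.28 and -0.12 and Zbtb16 0.02 and -0.0. With the clock genes Sgk1 had 0.68 and 0.27, Fkbp5 0.28 and 0.51 and Zbtb16 0.08 and 0.63. With the immediate early genes Sgk1 had 0.43 and 0.33, Tsc22d3 0.33 and 0.42, Fkbp5 -0.18 and 0.17 and Zbtb16 -0.49 and 0.15. The part of oligodendrocytes, of the time of collection and of neuronal activity in the pattern was not tested. Receptor coregulators (median -0.06) and endothelial markers (0.26) had 0 genes above the percentile.

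The 3 genes whose deviations were most like those of Sgk1, by the mean of r in both regions over 10 libraries each, were Plekhf1 (0.93), Nfkbia, the inhibitor of NF-kappaB (0.91), and Arrdc2 (0.84). Those most like Tsc22d3 were Rin2 (0.92), Klf15 (0.91) and Dusp18 (0.88). Those most like Fkbp5 were Ube2g2 (0.84), Sipa1l3 (0.80) and Plin4 (0.79). Of these 9 genes 4 were in the list of 27 other induced genes, Nfkbia, Arrdc2, Klf15 and Plin4, as a description with no test. That list holds 27 of the 13469 genes tested in both regions, from which the 9 were taken by their high r.

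Between different members within a region, 1 of 36 pairs passed adjustment in the neocortex and 0 of 36 in the hippocampus. In the neocortex Nr3c1 and Fkbp5 were inversely related, with r = -0.93 (exact permutation within genotype p = 0.000764, adjusted over 36 pairs 0.0275), and r = -0.91 without the 2 libraries farthest from the median. By rank it did not pass (rho -0.79, adjusted exact permutation p = 0.518), and 0 of 36 neocortical pairs did. The lowest Nr3c1 levels, in control library 4 and cTKO library 3, came with the highest Fkbp5 levels of their groups. In the hippocampus the same pair gave r = 0.03. The neocortical relation no longer passed adjustment when any 1 library but cTKO 4 or 5 was left out. Sgk1 with Tsc22d3 gave r = 0.75 and 0.63 in neocortex and hippocampus, and Fkbp5 with Tsc22d3 gave 0.70 and 0.65, neither of them passing adjustment. Zbtb16 gave -0.38 and -0.11 with Sgk1. Over the 36 pairs the median r was -0.04 for neocortical and 0.21 for hippocampal libraries.

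**Figure D5:**
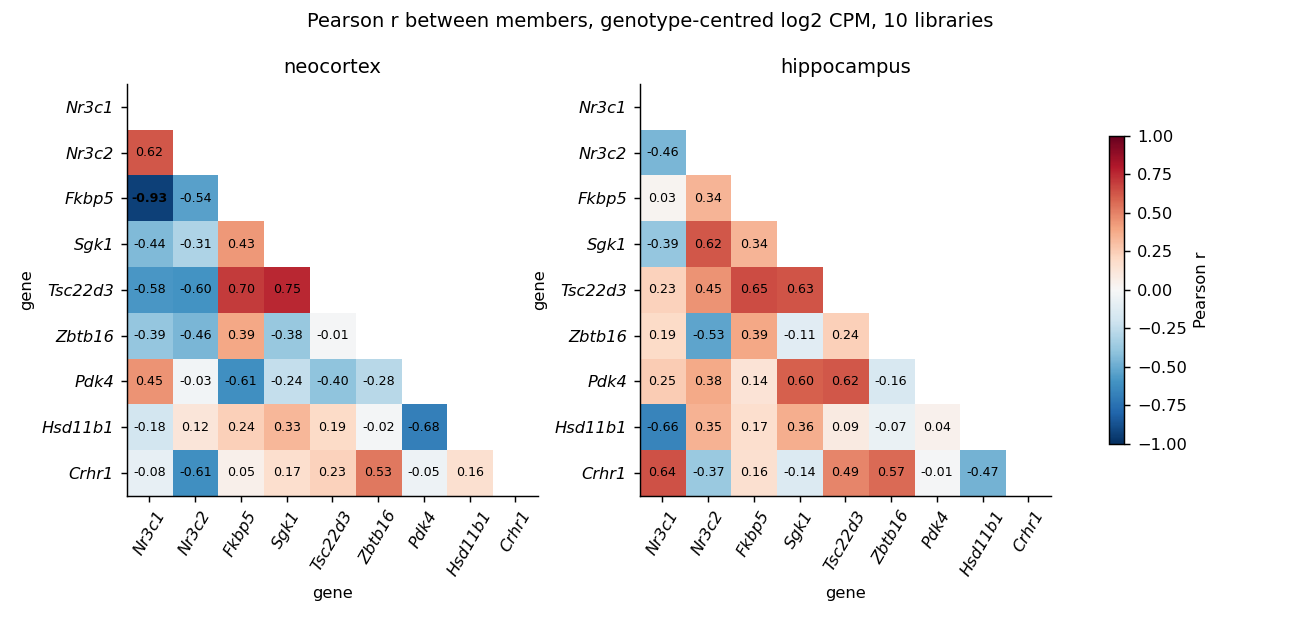
Pearson r between members across the 10 libraries of the neocortex (left) and hippocampus (right), after removal of the genotype means, with r printed in each cell and in bold where the adjusted p was under 0.05. The 1 bold cell is Nr3c1 with Fkbp5 in the neocortex at -0.93, and the same cell is 0.03 in the hippocampus.

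Levels per kilobase of exon ordered the members differently in each region. In control neocortex the order was Sgk1 (20.2 CPM), Tsc22d3 (18.3), Nr3c1 (16.7), Zbtb16 (14.8), Crhr1 (9.70), Nr3c2 (5.03), Fkbp5 (4.15), Pdk4 (3.77) and Hsd11b1 (2.45). Libraries of neighbours in this order overlapped except between Zbtb16 and Crhr1, Crhr1 and Nr3c2, and Pdk4 and Hsd11b1. In control hippocampus Nr3c2 came first (25.1 CPM), followed by Sgk1 (21.3), Tsc22d3 (19.5), Zbtb16 (16.5) and Nr3c1 (12.6), and Crhr1 came last (3.86). There libraries of neighbours overlapped from Nr3c2 down to Zbtb16, as did those of Pdk4 and Crhr1, while Zbtb16 and Nr3c1 did not overlap. In cTKO mice Nr3c2 again came first in the hippocampus (24.4 CPM) and Sgk1 in the neocortex (16.4 CPM), each overlapping the next in order, and both stayed first without the libraries with embryonic markers.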

How the data were processed

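Per the labels and the methods, poly(A) RNA was sequenced as single-end reads. The authors mapped reads to mm10 with STAR 2.5.4a, used HTSeq to count them and deposited the raw counts of each gene. Their strand setting and annotation are not given in the sources used here. Here counts were tested with edgeR 4.0.16 in R 4.3.3. A gene was kept if 5 or more of the libraries fitted had a CPM over 1. After TMM scaling, glmQLFit and glmQLFTest were used with Benjamini-Hochberg adjustment over all genes tested, and an FDR under 0.05 was taken as called. The methods name edgeR without a test function. Genotypes were compared in each region, regions in each genotype, and the region by genotype term in a fit of all 20 libraries. Single values were compared by exact permutation of log2 CPM with a prior count of 2, and correlations by exact permutation within genotype (14400 permutations). Log2 CPM for correlations was centred on the mean of each genotype.

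Alternatives were edgeR's exact and likelihood ratio tests, DESeq2 1.42.0 without independent filtering, DESeq2's size factors, other filters, the library number as a block, 1 fit for all 20 libraries, Xist as a covariate, a prior count of 0.5 and each library left out. Leaving out both libraries with embryonic markers (or that of the region, for lists), and all of the comparison of same-numbered libraries, was added after seeing the data. In controls, deviations of same-numbered libraries of the 2 regions correlated between 0.12 and 0.35, each over 0.1, so that the numbers were taken to pair them. Other numbers reached 0.15 there, and 4 of 5 were best with their own number. In cTKO mice same-numbered values ran from -0.09 to 0.37, and other numbers reached 0.59. Only 3 of 5 cTKO numbers were best with their own. These cTKO numbers were used as pairs all the same.

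The 9 genes and the lists were chosen with earlier results of these data known. From other lists, at most 4 called genes per list and comparison were named, smallest p first, and others are marked where named. Levels per length use the union of exons in GENCODE M21 (GRCm38). Floors of 3 counts cover counting error only, since reads carry no molecular identifiers. Procedures were tested on simulated data. The methods count 5 mice per genotype, and p values measure the spread between libraries.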

Additional observations from a re-analysis of the deposited data

Results flagged for a closer look

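In 36 groups of 5 libraries (9 genes in 4 groups), 3 held a library whose gap to its neighbour was large against the range of the group by Dixon's 95% limit, and about 1.8 would be expected by chance. Nr3c1 in cTKO neocortex library 3 was 102.4 CPM, below 119.8 to 125.0 CPM in the other 4. Fkbp5 in cTKO hippocampus library 3 was 75.65 CPM, above 65.02 to 67.62 CPM in the others. Hsd11b1 in control hippocampus library 1 was 26.78 CPM, below 31.9 to 32.7 CPM in the others. Both cTKO libraries of number 3 also had the highest Sgk1 and Tsc22d3 levels of their groups.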

How the results depend on the processing

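Of 990 alternative values of the members' log2 fold changes, 913 kept their direction and side of the threshold, 8 passed it newly, 0 lost it and 69 changed sign, 55 of the 69 in the region by genotype term, where 0 members were called. The cause of these changes was not tested. The region by genotype value was 0.003 for Sgk1 and 0.007 for Hsd11b1 with filterByExpr, 0.062, 0.008 and -0.006 for Sgk1, Hsd11b1 and Crhr1 with the replicate block, 0.006 and -0.012 for Hsd11b1 and Crhr1 with Xist as a covariate, and 0.074 and 0.001 for Tsc22d3 and Zbtb16 without both libraries with embryonic markers. With 1 library left out it ranged from -0.092 to 0.017 for Nr3c1, -0.042 to 0.235 for Fkbp5, -0.183 to 0.242 for Sgk1, -0.148 to 0.104 for Tsc22d3, -0.152 to 0.056 for Zbtb16, -0.123 to 0.083 for Hsd11b1 and -0.144 to 0.110 for Crhr1. The genotype value in the hippocampus then ranged from -0.120 to 0.040 for Fkbp5 and -0.019 to 0.177 for Hsd11b1. The regional value ranged in controls from -0.057 to 0.229 for Sgk1 and -0.004 to 0.202 for Tsc22d3, and in cTKO mice from -0.107 to 0.306 for Sgk1, -0.066 to 0.175 for Tsc22d3 and -0.001 to 0.211 for Zbtb16.

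The members called by genotype in the hippocampus were 1 (Pdk4) in place of 0 with the exact test, the likelihood ratio test, DESeq2, the fit of all 20 libraries and the replicate block (FDR = 0.0381), and in the neocortex 0 to 1 with 1 library left out. All genes called in the neocortex were 26, and 163 with the exact test, 167 with the likelihood ratio test, 221 with DESeq2, 42 with no filter, 12 with the replicate block, and 7 (without control library 1) to 133 (without cTKO library 5) with 1 left out. In the hippocampus they were 67, and 258, 259 and 331 with the same 3 tests, 189 in the fit of all 20, and 15 (without control library 4) to 149 (without cTKO library 5) with 1 left out. For the region by genotype term they were 8, and 26 with the likelihood ratio test, 26 with DESeq2, 18 with the replicate block and 5 to 20 with 1 left out. Of 18 exact permutation tests of single members by genotype, 5 gave p under 0.05, and 3 to 6 with 1 library left out. The 1 covarying pair became 0 to 1 with 1 library left out and 0 with the replicate block, which leaves 5 differences between paired genotypes. Apart from the calls of Pdk4 in the hippocampus and Zbtb16 between regions in controls, the replicate block changed no call of a member. Zbtb16 was also called in controls with Xist as a covariate (FDR = 0.0203). Same-numbered libraries did not pair by the same criterion between regions in cTKO mice (lowest r -0.09) or between genotypes (lowest 0.01 for neocortex, -0.16 for hippocampus). The lowest count of a member in a library was 117, of Hsd11b1.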
